A study of Mus musculus with 21 samples.

Results

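The choroid plexus genes described here are 10 genes that epithelial cells of this tissue are known for, namely Ttr, Kl, Folr1, Kcne2, Kcnj13, Clic6, Otx2, Aqp1, Slc4a5 and Enpp2. They were selected by gene symbol from 40770 entries in the table of the linc-Brn1b strain and from 42760 in the table of the Peril strain. The group was put together with the expression values of these tables known, the knockout over wild-type values among them, so those values are a description and no test of the choice.

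Expression was measured by RNA-Seq in mice that lack a long intergenic noncoding RNA (lincRNA) and in wild-type mice. The linc-Brn1b strain was sampled as telencephalon, the forebrain part that forms the cerebral cortex, at embryonic days E13.5 and E15.5, and as whole brain at postnatal day P7. The Peril strain, named linc-Sox2 in the sample labels, was sampled as whole brain at E18.5, and a strain named linc-Foxf1a as lung at E14.5. In the homozygous knockouts (-/-) a lacZ reporter cassette with a neomycin resistance gene replaced the lincRNA gene, and the wild-type animals (+/+) carried no cassette. The strains came from hybrid embryonic stem cells of 129S6Sv/Ev and C57BL/6N origin and were backcrossed a single time to C57BL/6J. The labels list 2 libraries in each group, except 3 in the linc-Brn1b knockout at E15.5, where the study's text counts fewer.

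The deposited tables give 1 value per group in FPKM, the number of sequenced fragments scaled by transcript length and by library size, with no value per library. Spread between animals and depth are therefore unknown, and no standard deviation, interval or test stands beside the values below. A gene was compared where at least 1 of the 2 groups had 1 FPKM or more, and was counted as lower or higher where the ratio of FPKM + 0.1 was at least 1.5-fold. These are pieces of whole tissue, so fewer choroid plexus cells and less RNA per cell cannot be told apart.

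The choroid plexus is a folded sheet of epithelium that hangs into the brain ventricles and makes cerebrospinal fluid. In the forebrain it grows from the dorsal midline beside the cortical hem, and its cells carry thyroid hormone and folate across the blood-cerebrospinal fluid barrier and move ions and water into the ventricle. Transthyretin, the product of Ttr, is its best known secreted protein and is also made by liver, while Otx2 encodes a homeodomain transcription factor that choroid plexus cells need to form and to be kept.

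All 10 members are annotated as protein-coding genes in mm9 and lie on 8 chromosomes. Kcne2 (chromosome 16, 92292634 to 92298378, plus strand) and Clic6 (chromosome 16, 92498392 to 92541486, plus strand) are the closest pair, with 187606 bp between the annotated end of Kcne2 and the annotated start of Clic6. Aqp1 and Slc4a5 share chromosome 6, at 55286293 to 55298549 and at 83187369 to 83254939, both on the plus strand. Otx2 is listed on chromosome 14 from 49277859 to 49287181 on the minus strand. Folr1 is on chromosome 7 from 109006845 to 109019197 (minus strand), Kl on chromosome 5 from 151755182 to 151796392 (plus strand) and Enpp2 on chromosome 15 from 54670453 to 54751701 (minus strand). The entry of Kcnj13 spans 89223573 to 89347385 of chromosome 1, which is the range of Gigyf2 on the plus strand, whereas Kcnj13 itself is annotated from 89282938 to 89291304 on the minus strand inside it. Strand was not used in any stated step, so reads of these 2 genes may not have been told apart, and the Kcnj13 values are uncertain. The annotated range of Ttr overlaps Gm16090 on the minus strand, and that of Clic6 overlaps the protein-coding 2410124H12Rik on the plus strand. Whether reads of these overlapping genes entered the Ttr and Clic6 values was not tested.

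Upstream sequences of 250 bp from RefSeq (GRCm38.p6) were found for 6 of the 10 members, in 10 windows that each matched mm9 at a single place, by which they are located here. Folr1, Clic6 and Enpp2 had no entry, and Ttr is not shown. Printed 5′ to 3′ and ending at the base before the annotated start are the windows of 3 members that were low together at E15.5, Kcne2 (chr16:92292384-92292633, plus strand), Aqp1 (chr6:55286043-55286292, plus strand) and Kcnj13 (chr1:89291305-89291554, minus strand, within an intron of Gigyf2), and that of the most upstream start of Otx2 (chr14:49287320-49287569, minus strand), the transcription factor of the group. Capitals mark the letters TATAAA, those of a TATA box, wherever they occur in a window, and the Kcne2 and Aqp1 windows lack them.
Kcne2: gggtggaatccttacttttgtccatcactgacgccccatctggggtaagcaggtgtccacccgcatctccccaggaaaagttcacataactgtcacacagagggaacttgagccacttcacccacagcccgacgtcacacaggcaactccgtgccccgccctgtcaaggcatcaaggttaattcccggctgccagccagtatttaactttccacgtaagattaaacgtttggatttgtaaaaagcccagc
Aqp1: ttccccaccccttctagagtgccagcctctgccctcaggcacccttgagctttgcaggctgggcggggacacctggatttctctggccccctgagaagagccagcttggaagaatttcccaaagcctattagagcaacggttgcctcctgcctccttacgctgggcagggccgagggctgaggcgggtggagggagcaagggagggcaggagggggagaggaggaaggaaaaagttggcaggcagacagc
Kcnj13: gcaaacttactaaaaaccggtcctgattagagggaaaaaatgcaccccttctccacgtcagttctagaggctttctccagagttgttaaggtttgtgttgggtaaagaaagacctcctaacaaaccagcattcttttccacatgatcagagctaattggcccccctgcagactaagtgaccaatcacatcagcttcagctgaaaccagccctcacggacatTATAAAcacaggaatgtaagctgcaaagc
Otx2: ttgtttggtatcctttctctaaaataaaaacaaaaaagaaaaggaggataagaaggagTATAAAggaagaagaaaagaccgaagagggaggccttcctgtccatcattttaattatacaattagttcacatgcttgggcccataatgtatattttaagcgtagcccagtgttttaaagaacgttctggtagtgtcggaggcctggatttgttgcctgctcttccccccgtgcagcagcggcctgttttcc
The letters TATAAA occur on either strand in 12.4% of all 32851 such windows and in 3 of the 10 windows of these members. These are the windows of Kcnj13, where the letters begin 29 bases before the start, of Otx2 as printed, and of Slc4a5. In Otx2 the letters begin 192 bases before the start, and in Slc4a5 127 bases before it, on the opposite strand. Whether any of them works as a TATA box was not tested. The letters TAATCC, which OTX proteins bind, occur in 6.25% of all windows and in 1 of the 10, at a start inside Otx2. GC content was 52.4% for Kcne2, 62.0% for Aqp1, 45.2% for Kcnj13 and 42.0% for Otx2.

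The targeted transcript was checked first. The linc-Brn1b entry stood at 1.6 FPKM in wild type and was listed at 0 in the knockout at E13.5, at 2.50 and 0 at E15.5, and at 0.799 and 0 at P7. In the Peril table the entry linc-Atp11b-4, which overlaps the targeted locus and reaches beyond the deletion, stood at 0.0109 FPKM in wild type and 4.65 in the other group. This is the reverse of a loss, but an entry that reaches beyond the deletion cannot decide on the labels. Which Peril value belongs to wild type was inferred from the order of group names seen for the linc-Brn1b strain. The other group is therefore called the libraries labelled knockout. The study also assessed Peril by RT-PCR in brains of this age and took the deletion as made; those values are not analysed here. The groups also differed in sex: the Y-linked genes Uty, Kdm5d, Eif2s3y and Ddx3y stood between 8.23 and 16.5 FPKM in the E13.5 wild type and at most at 0.00723 in its knockout, while at E15.5, at P7 and in Peril they stood between 2.07 and 13.2 FPKM in the knockout and at most at 0.0184 in the wild type. Xist, the X inactivation transcript of females, stood at 92.5 FPKM in Peril wild type and 47.9 in the libraries labelled knockout. The libraries labelled knockout in Peril may thus hold both sexes. Whether sex had a part in the values below was not tested.

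Ttr, a gene of 4 exons at 20823751 to 20832827 of chromosome 18 on the plus strand, was the highest of the 10 members in 7 of the 8 brain groups. Its level in linc-Brn1b wild type was 146 FPKM in E13.5 telencephalon, 231 at E15.5 and 443 in P7 brain, and it stood at 807 FPKM in Peril wild-type brain at E18.5, where it ranked 43rd from the top of 42760 entries. Otx2 and Enpp2 followed at E15.5 with 5.69 and 4.63 FPKM, then Kcne2 with 3.84, Folr1 with 3.82, Clic6 with 3.28 and Aqp1 with 2.52. Kcnj13 (0.806 FPKM), Slc4a5 (0.385) and Kl (0.0937) were below 1 FPKM in that group. FPKM is scaled by transcript length, so levels of different genes can be ordered, but whether near neighbours such as Kcne2 and Folr1 differ cannot be judged without values per library. Ttr made up most of the signal: the 10 members summed to 257 FPKM in E15.5 wild type and to 25.1 without Ttr.

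At E15.5 the choroid plexus genes were low in the linc-Brn1b knockout. All 10 had a lower value there than in wild type, with a median log2 ratio of -2.55, while the median over the 13657 genes compared was 0.01. Summed over the members, expression was 257 FPKM in wild type and 8.94 in the knockout, and Ttr made up most of the wild-type sum. Without Ttr the sums were 25.1 and 7.55 FPKM. Which of the libraries in the labels entered the knockout value is not known, and whether the dissected pieces of both genotypes held the same share of choroid plexus was not tested. The 7 members at 1 FPKM or more in a group, Ttr, Folr1, Kcne2, Clic6, Otx2, Aqp1 and Enpp2, were all lower by at least 1.5-fold and none was higher, beside 0.578% of all compared genes lower and 0.381% higher. Folr1, Kcne2, Clic6 and Aqp1 were compared by their wild-type value alone and so could only be lower or near equal. The genes lower by at least 1.5-fold numbered 79, of which 7 are these members.

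Among the carriers and secreted proteins, Ttr stood at 231 FPKM in wild type and 1.39 in the knockout, 0.599% of the wild-type value and a log2 ratio of -7.28. It was the 7th lowest ratio of the 13657 genes. Enpp2, which encodes the secreted lysophospholipase autotaxin, stood at 4.63 FPKM in wild type and 2.91 in the knockout, a log2 ratio of -0.65 that is the nearest to the 1.5-fold limit among the members past it. Kl, which encodes the ageing-related coreceptor klotho, was at 0.0937 and 0.0592 FPKM, too low in both groups to compare. Folr1, the folate receptor of the epithelium, stood at 3.82 FPKM in wild type and 0.290 in the knockout, or 7.58%.

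The channels and transporters were low too. Kcne2, a potassium channel subunit, stood at 3.84 FPKM in wild type and 0.0777 in the knockout, which is 2.03% and the 10th lowest ratio of all. Clic6, a chloride intracellular channel, was at 3.28 and 0.305 FPKM (9.31%), and Aqp1, the water channel of the ventricular face, at 2.52 and 0.249 FPKM (9.90%). Below the 1 FPKM minimum, Kcnj13, an inward rectifier potassium channel, was at 0.806 and 0.0976 FPKM, and Slc4a5, a sodium bicarbonate cotransporter, at 0.385 and 0.0359 FPKM. These 5 genes thus stood in the knockout at between 2.03% and 12.1% of their wild-type value.

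Otx2 stood at 5.69 FPKM in wild type and 3.53 in the knockout, 62.0% of the wild-type value and a log2 ratio of -0.68, close to that of Enpp2. With Ttr so low, Otx2 was the highest member in the E15.5 knockout. Ttr stood at 40.6 times the FPKM of Otx2 in wild type and at 0.393 times in the knockout, and against Folr1 the factor was 60.6 in wild type and 4.79 in the knockout. The members did not go down in equal proportion.

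**Figure D1:**
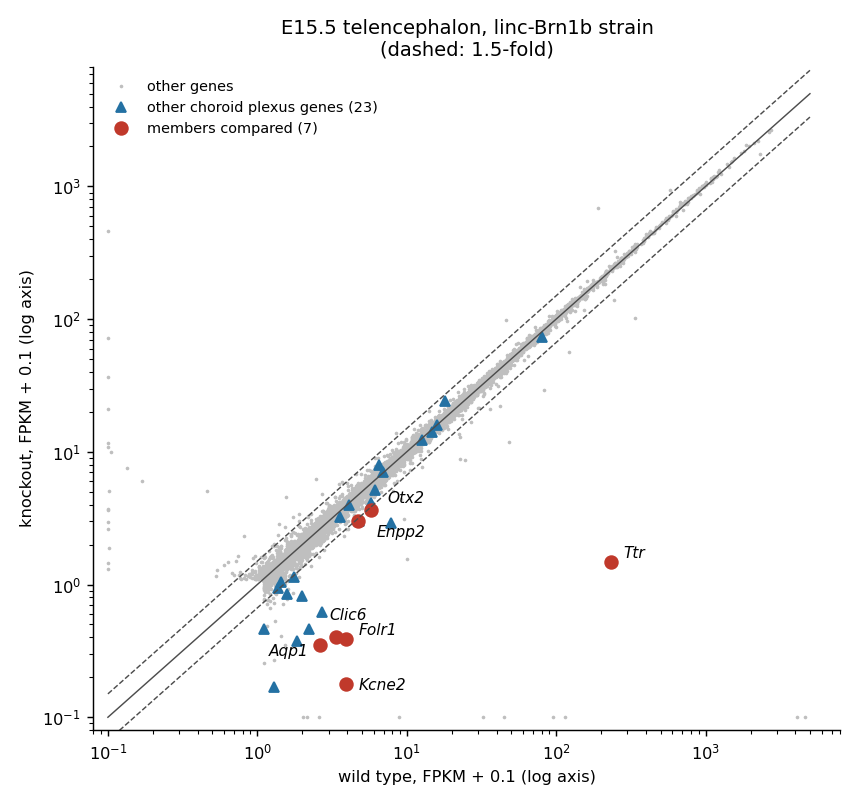
Wild-type (x axis) against knockout (y axis) expression of each gene compared in E15.5 telencephalon, as FPKM + 0.1 on log axes; red circles are the 7 members compared, blue triangles 23 other choroid plexus genes, grey dots all other genes, and dashed lines mark 1.5-fold. Ttr lies far below the diagonal, from 231 FPKM in wild type to 1.39 in the knockout, with Kcne2, Folr1, Clic6 and Aqp1 below the lower dashed line and Otx2 and Enpp2 just under it, while grey dots on the bottom edge are genes listed at 0 in the knockout.

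A value at or near 0 in this group needs care. Of the 79 genes lower by 1.5-fold, 10 are listed at exactly 0 in the E15.5 knockout, and they include Eef1a1 and Tuba1a, genes that every brain cell uses, at 4664 and 4122 FPKM in wild type. These names were chosen after their values were seen. A listed 0 in this table can thus be a failed estimate, and no member is listed at 0 in any brain group.

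Other genes of the choroid plexus epithelium, from a list of 34, were lower in part. Of the 23 compared at E15.5, 10 were lower by at least 1.5-fold, none was higher and 13 were within it, with a median log2 ratio of -0.49, beside the 0.578% of all compared genes lower. Of the 10 lower genes, 7 reached 1 FPKM in wild type alone and so could not have been counted as higher. Krt18, an epithelial keratin, stood at 1.18 FPKM in wild type and 0.0679 in the knockout. Wfikkn2 was at 1.73 and 0.278, Calml4 at 2.12 and 0.366, and Sostdc1, a secreted BMP and Wnt antagonist, at 2.60 and 0.517 FPKM. Sulf1 (7.73 and 2.83 FPKM), the carbonic anhydrase gene Car12 (1.88 and 0.721), Cldn1 (1.003 and 0.363), the serotonin receptor gene Htr2c (1.47 and 0.747), Trpm3 (4.70 and 2.94) and Ace (1.66 and 1.04) made up the rest. Together with the members these are 17 of the 79 lower genes.

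The 13 genes of that list within 1.5-fold include some of its most abundant. Igfbp2 stood at 80.2 FPKM in wild type and 73.5 in the knockout, Slc31a1 at 15.7 and 15.8, Slc12a2, a sodium, potassium and chloride cotransporter, at 12.5 and 12.2, and Cab39l at 6.87 and 7.001 FPKM. 1500015O10Rik, also called Ecrg4, stood at 6.42 FPKM in wild type and 7.81 in the knockout. Several of these are also expressed by cells outside the choroid plexus, and the shares of each source are not known from these files.

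Genes of neighbouring tissues differed less at E15.5. Of 8 roof plate and cortical hem genes compared, all had the lower value in the knockout and 1 was lower by 1.5-fold, Msx1, at 1.07 FPKM in wild type and 0.384 in the knockout (named after its values were seen). Rspo3, a secreted Wnt agonist of the hem, stood at 11.5 FPKM in wild type and 10.5 in the knockout. Wnt5a stood at 5.89 and 5.12 FPKM and Rspo2 at 2.41 and 2.18. Of 11 motile cilia genes, 2 were lower by at least 1.5-fold, with a list median of -0.11. One of them was Dynlrb2, a gene of like pattern described below, while Rfx3 (11.4 and 10.8 FPKM) and Rsph9 (9.72 and 9.99) differed little. Of 6 meningeal and stromal genes 2 were lower, with a list median of -0.34. None of 10 endothelial, 10 telencephalic, 5 diencephalic and midbrain and 5 myelin genes was past 1.5-fold in either direction. Of 4 red blood cell genes 1 was lower, Hbb-y, at 26.7 and 16.7 FPKM.

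**Figure D2:**
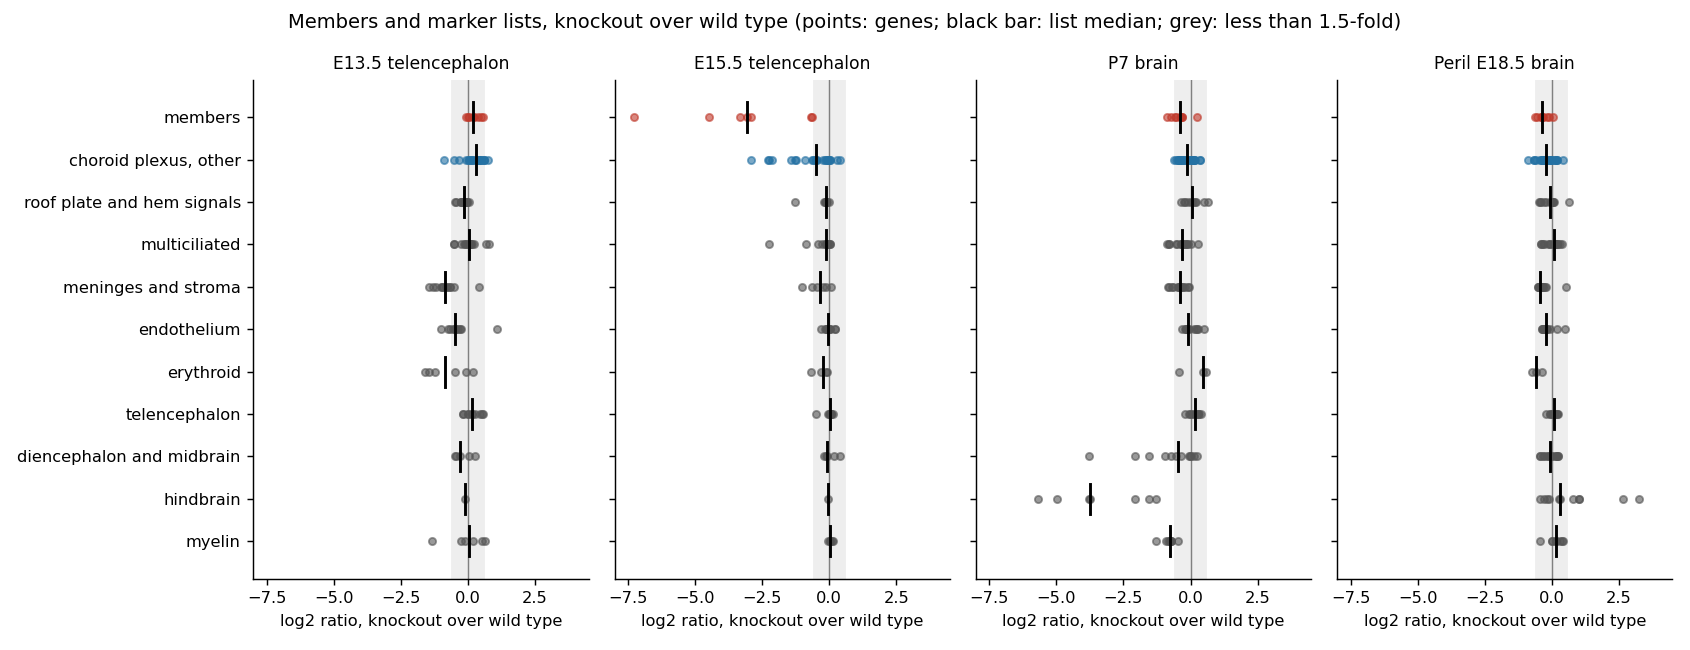
Log2 ratio of knockout over wild type (x axis, FPKM + 0.1) for each compared gene of the members and of 10 marker lists (y axis), in the 4 brain comparisons; each point is a gene, the black bar the list median, and grey marks less than 1.5-fold. At E15.5 the 7 members compared and part of the other choroid plexus genes lie left of the grey band, at E13.5 the meningeal genes do, and at P7 the hindbrain and myelin genes do.

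At E13.5, in the same strain and tissue, the members were not low in the knockout. None of the 8 compared was lower or higher by 1.5-fold, beside 7.1% of 13822 genes lower and 3.7% higher, and the median log2 ratio over all 10 was 0.20 against 0.06 over all genes. Ttr stood at 146 FPKM in wild type and 188 in the knockout, Kcne2 at 4.57 and 6.72, Clic6 at 6.94 and 8.13, Otx2 at 12.9 and 13.04, Enpp2 at 6.08 and 6.87, Folr1 at 2.89 and 2.97 and Kcnj13 at 1.10 and 1.58 FPKM. Aqp1 was at 1.73 and 1.65 FPKM, the only compared member with the lower value in the knockout. Slc4a5 (0.417 and 0.909 FPKM) and Kl (0.0785 and 0.0726) were below the minimum in both groups.

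Other choroid plexus genes at E13.5 were 4 higher and 1 lower of 21 compared, with a median log2 ratio of 0.28. Car12 (1.19 and 2.08 FPKM), Htr2c (1.39 and 2.17), Slc4a10 (1.89 and 2.94) and Sostdc1 (2.09 and 3.25) were higher in the knockout, and Wfdc2 (5.53 and 2.93) was lower. With a pseudocount of 1 FPKM none of the list of other choroid plexus genes was higher. In the other direction, 10 of 12 meningeal and stromal genes were lower in the E13.5 knockout, with a summed level of 157 FPKM in wild type and 88.1 in the knockout. Likewise 3 of 6 red blood cell genes were lower, and that list summed to 1307 and 612 FPKM. Their part in the members' values was not tested.

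**Figure D3:**
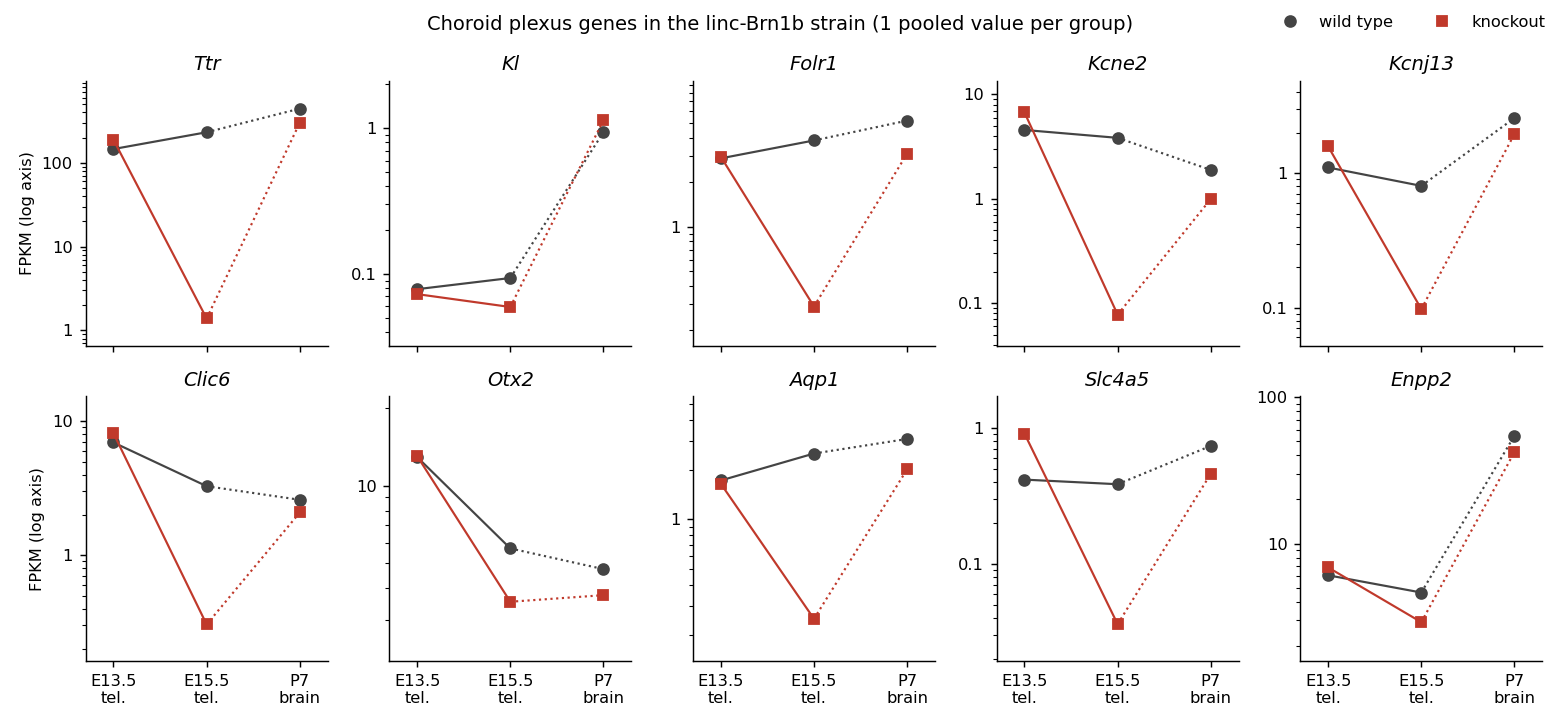
Expression of each member in the linc-Brn1b strain, in FPKM on a log axis with its own range per panel, for E13.5 and E15.5 telencephalon (tel.) and P7 brain; grey circles are wild type and red squares knockout, 1 pooled value per group with no error, and dotted lines join different tissues. The E15.5 knockout lies below wild type in every panel, by the most for Ttr (1.39 against 231 FPKM), and at the other ages the genotypes lie nearer to each other, with Slc4a5 at E13.5 the farthest apart (0.417 and 0.909 FPKM).

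Between E13.5 and E15.5 wild-type telencephalon showed a mixed picture, with 1 of 8 compared members higher and 2 lower by 1.5-fold, beside 12.6% of 13973 genes higher and 10.9% lower. Ttr was higher at E15.5 (146 to 231 FPKM), whereas Otx2 (12.9 to 5.69) and Clic6 (6.94 to 3.28) were lower, and Folr1, Kcne2, Kcnj13, Aqp1 and Enpp2 were within 1.5-fold. Kl (0.0785 and 0.0937) and Slc4a5 (0.417 and 0.385) were below the minimum. Knockout telencephalon had all 8 compared members lower at E15.5 and none higher, beside 11.2% of 13977 genes lower and 13.3% higher. Ttr stood at 188 FPKM at E13.5 and 1.39 at E15.5, Kcne2 at 6.72 and 0.0777, Clic6 at 8.13 and 0.305, Kcnj13 at 1.58 and 0.0976, Folr1 at 2.97 and 0.290, Aqp1 at 1.65 and 0.249, Otx2 at 13.04 and 3.53 and Enpp2 at 6.87 and 2.91 FPKM. Slc4a5 (0.909 and 0.0359) and Kl (0.0726 and 0.0592) were below the minimum. Folr1, Kcne2, Kcnj13, Clic6 and Aqp1 were compared by their E13.5 value alone and could not have been counted as higher. This comparison uses the same E15.5 knockout value as the one at E15.5 and is no separate evidence. Other lists were lower over the same step in both genotypes. Of the meningeal and stromal genes 11 of 12 were lower in wild type (157 to 22.3 FPKM summed) and 9 of 10 in the knockout (88.1 to 16.2), and of the roof plate and hem genes 11 of 13 and 10 of 12, with median log2 ratios of -1.43 and -1.42. Their part in the members' values was not tested.

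In whole brain at P7 the members were present in the knockout. Ttr was at 443 FPKM in wild type and 301 in the knockout, or 68.1%, just short of 1.5-fold with a log2 ratio of -0.55. Folr1 (5.20 and 3.12 FPKM), Kcne2 (1.89 and 0.997) and Aqp1 (3.09 and 2.02) were lower by at least 1.5-fold, which makes 3 of 9 members compared lower and none higher, beside 4.58% of 14521 genes lower and 3.78% higher. Aqp1 was the last inside the limit with a log2 ratio of -0.59. Kcne2 reached 1 FPKM in wild type alone and so could not have been counted as higher. Kl reached it in the knockout alone and could not have been counted as lower. Kcnj13 stood at 2.58 and 1.96 FPKM, Clic6 at 2.59 and 2.09, Otx2 at 4.73 and 3.74, Enpp2 at 54.5 and 42.2, Kl at 0.941 and 1.14 and Slc4a5 at 0.739 and 0.461. The values were lower in the knockout for 9 of the 10, with a median log2 ratio of -0.47 against 0.01 over all genes.

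Other gene lists also differed between the genotypes at P7, and whether the dissected pieces held the same regions was not tested. All 7 hindbrain genes compared were lower in the knockout, with a summed level of 60.9 FPKM in wild type and 17.7 in the knockout, and Hoxa5 stood at 5.06 FPKM and was listed at 0, Barhl1 at 4.25 and 0.939, and Zic1 at 38.8 and 15.96. Of 9 myelin genes 8 were lower, among them Mbp at 292 and 161 FPKM. This touches Enpp2, which oligodendrocytes also express. All 14 meningeal and stromal genes compared had the lower value in the knockout, 4 of them by 1.5-fold, with a median log2 ratio of -0.39 and a summed level of 202 and 152 FPKM. Of 12 diencephalic and midbrain genes 5 were lower and none higher. Of 16 motile cilia genes 3 were lower (2 with a pseudocount of 1 FPKM) and none higher. In that list 14 had the lower value in the knockout, with a median log2 ratio of -0.31. The hindbrain has a choroid plexus of its own, and the part of any of these lists in the members' P7 values was not tested. Other choroid plexus genes were lower in 1 of 25 cases and higher in none, with a median log2 ratio of -0.13, and the lower one was 1500015O10Rik at 12.7 and 8.27 FPKM. At E15.5 and E13.5 a single hindbrain gene reached 1 FPKM, Zic1, and it was within 1.5-fold at both ages.

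From E15.5 telencephalon to P7 brain, age and tissue cannot be told apart. In wild type 3 of 8 members compared were higher and 1 lower, beside 27.6% of 14909 genes higher and 30.4% lower. Enpp2 stood at 4.63 and 54.5 FPKM, Kcnj13 at 0.806 and 2.58 and Ttr at 231 and 443, whereas Kcne2 stood at 3.84 and 1.89. In wild type Kcnj13 reached 1 FPKM at P7 alone, so it could not have been counted as lower. In the knockout 7 of 8 were higher and none lower, beside 28.4% of 14853 genes higher and 30.5% lower, and Otx2 was the exception at 3.53 and 3.74 FPKM. Kl, Folr1, Kcnj13, Clic6 and Aqp1 reached 1 FPKM at P7 alone, so they could not have been counted as lower, and the count uses the same low E15.5 knockout value as above. Ttr stood at 1.39 FPKM at E15.5 and 301 at P7 in the knockout. Kl, below 0.1 FPKM in all telencephalon groups, was near 1 FPKM at P7 in both genotypes.

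Within wild type the members differed in their course. Ttr stood at 32.0 times the FPKM of Kcne2 in E13.5 telencephalon, 60.3 times at E15.5 and 234 times in P7 brain, and at 11.3, 40.6 and 93.7 times that of Otx2. Against Folr1 the factors were 50.4, 60.6 and 85.1, which is a smaller span. Ttr, Folr1 and Aqp1 had their lowest wild-type value at E13.5 and their highest at P7, and Kcne2, Clic6 and Otx2 the reverse.

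In the Peril strain at E18.5 the libraries labelled knockout had the lower value for 9 of the 10 members, mostly by less than 1.5-fold. Kcne2, at 5.95 FPKM in wild type and 3.86 in the libraries labelled knockout, was the 1 of 9 members compared that was lower by 1.5-fold, and none was higher, beside 1.83% of 14729 genes lower and 2.46% higher. Ttr was at 807 and 551 FPKM (68.4%), Folr1 at 9.68 and 7.44, Otx2 at 12.8 and 9.97, Enpp2 at 26.7 and 21.4, Slc4a5 at 1.12 and 0.816, Clic6 at 5.54 and 4.93 and Aqp1 at 8.11 and 7.58. Kl, at 0.661 and 0.433 FPKM, was below the minimum. Kcnj13 was at 2.28 and 2.36 FPKM, the only member with the higher value in the libraries labelled knockout. The median log2 ratio over all 10 members was -0.37, against 0.00 over all genes.

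Other lists in the Peril brains moved as well. Of 26 other choroid plexus genes 4 were lower and none higher, with a median log2 ratio of -0.21: Sostdc1 at 6.33 and 4.13 FPKM, Krt18 at 2.26 and 1.37, Krt8 at 1.26 and 0.748, and Wfdc2 at 2.14 and 1.10. None of the 4 passed 1.5-fold with a pseudocount of 1 FPKM. Krt8 reached 1 FPKM in wild type alone and so could not have been counted as higher. None of 15 meningeal and stromal genes passed 1.5-fold, though 14 had the lower value in the libraries labelled knockout and their summed level was 282 and 212 FPKM. Of 11 hindbrain genes 5 were higher, and Hoxa5 stood at 1.002 and 6.81 FPKM. Of 3 red blood cell genes 2 were lower, Hba-a2 (131 and 86.7 FPKM) and Hbb-b1 (89.2 and 52.8). None of 12 endothelial genes passed 1.5-fold, though 10 had the lower value, with a median log2 ratio of -0.23. The part of these lists in the members' values was not tested.

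**Figure D4:**
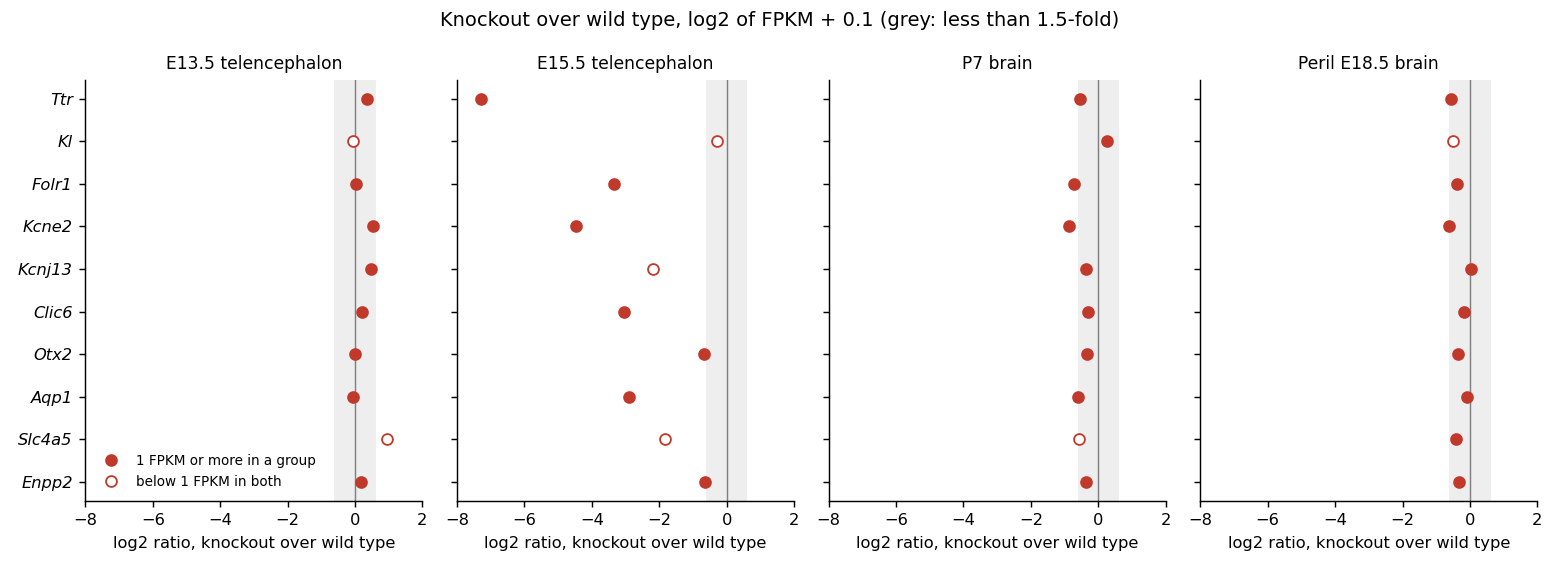
Log2 ratio of knockout over wild type (x axis, FPKM + 0.1) for each member (y axis) in the 4 brain comparisons; filled circles had 1 FPKM or more in a group, open circles less in both, and the grey band marks less than 1.5-fold. Ratios reach -7.28 for Ttr at E15.5 and lie between -0.86 and 0.97 in the other panels.

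Genes of other tissues that express some of the members were looked at as well. Of 10 liver genes, 7 (Alb, Afp, Ahsg, Fga, Fgb, Fgg and Serpina1a) stood at no more than 0.131 FPKM in any of the 8 brain groups. The other 3 were higher: Apoa1 reached 0.668 FPKM, Apoa2 1.62, and Trf, which encodes transferrin and is also expressed in brain, stood between 3.99 and 13.6. Of 10 genes of the retina, the pigment epithelium and the pineal gland, tissues that also express Otx2, Rpe65, Tyr, Tyrp1, Crx and Aanat reached at most 0.251 FPKM, Pmel 0.429, Best1 0.703 and Tph1 1.07. Dct stood between 0.136 and 9.54 FPKM and Rlbp1 between 13.2 and 38.4. Both were within 1.5-fold between the genotypes at E15.5, but at E13.5 Dct was higher in the knockout (5.87 and 9.54 FPKM). In Peril Tph1 was higher in the libraries labelled knockout (0.628 and 1.07 FPKM), where alone it reached 1 FPKM. In E14.5 lung Ttr was at 0.718 FPKM in wild type and 0.0510 in the knockout, and Otx2 was at 0.0373 and listed at 0. Aqp1 (23.2 and 24.8 FPKM), Enpp2 (21.2 and 23.6) and Clic6 (11.04 and 10.3) were well expressed in lung, so these 3 members were also expressed in a tissue without choroid plexus.

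Genes of like pattern were sought by the distance between log2(FPKM + 0.1) profiles over the 6 linc-Brn1b groups, each centred on its mean, among 14573 genes. Nearest to Ttr were Defb11, Col8a2, Aebp1, AK013627, Slco1a4, Krt18, Dynlrb2, Spata18, Wdr63 and Sostdc1. Of the members Folr1 ranked 4th, Kcnj13 8th, Kcne2 11th, Aqp1 12th and Clic6 17th, counting Ttr itself as first, whereas Enpp2 ranked 55th, Kl 311th and Otx2 2036th. Among the genes nearest to Ttr, Defb11 and AK013627 are listed at 0 in the E15.5 knockout, which can be a failed estimate. Slco1a4 is in the endothelial list, and Krt18 and Sostdc1 are in the list of other choroid plexus genes. Even the nearest, Defb11, lay at a distance of 3.38 from Ttr. Nearest to the mean profile of the members were Dynlrb2, Col8a2, Calml4, Krt18, Sostdc1, Dnajb13, Wdr63, Ak7, Spata18 and Ccdc108. By distance to that mean profile Folr1 ranked 4th, Kcnj13 5th, Aqp1 8th and Clic6 73rd. Kcne2 ranked 1418th, Otx2 2138th, Enpp2 5459th, Kl 5969th and Ttr 13061st, so the members did not share a single profile. Over the 4 knockout over wild-type ratios the nearest of 14009 genes were Wfikkn2, Dynlrb2, Col8a2, Calml4, Krt18, Spata18, Sostdc1, Aebp1, Dnajb13 and linc-Tox3-4.

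Dynlrb2 and Ak7 are in the list of motile cilia genes, and the other genes described next are in no list. Col8a2, a collagen of basement membranes, stood at 0.926 FPKM in E15.5 wild type and 0.0250 in the knockout, at 0.755 and 0.820 at E13.5, at 1.72 and 1.17 at P7, and at 3.13 and 2.16 in Peril. Defb11, a defensin, was at 2.06 FPKM and listed at 0 at E15.5, and at 0.282 and 1.59 at E13.5. Dynlrb2, a dynein light chain of motile cilia, was at 1.74 and 0.291 FPKM at E15.5, at 2.67 and 2.85 at E13.5 and at 4.48 and 2.53 at P7. Dnajb13 (0.576 and 0.125 FPKM), Ak7 (0.629 and 0.189), Wdr63 (0.305 and 0.0206) and Spata18 (0.285 and 0.0117) were below 1 FPKM at E15.5 in both groups. With 6 values per profile that share their libraries, this likeness is a description of these groups.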

How the data were processed

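RNA-Seq of 21 libraries was analysed, in 10 groups taken from the labels. Paired-end reads had been mapped to mm9 by the authors (TopHat2), and transcript assembly and expression estimates came from Cufflinks, version 2.0.2 in the submitters' processing notes, and its Cuffdiff2 step at default options. The values they deposited are in FPKM, pooled to 1 value per group, in 3 tables that were normalized separately, with 0 columns of values per sample. The deposited fold changes, test statistics, p-values and q-values of their own comparisons were not used.

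With Python 3.11.15 (pandas 2.3.3, numpy 2.4.6), log2 ratios of FPKM + 0.1 were computed within a table, for genes at 1 FPKM or more in at least 1 of the 2 groups. Lower and higher mean at least 1.5-fold. The group order of the linc-Brn1b strain was checked over its 15 comparisons. For the Peril and lung values the order was inferred from the same layout of group names and could not be checked in that way. Counts were tested on simulated data. Members and lists were chosen with earlier results of these data known. The rule for named genes took all 10 members, other choroid plexus genes where they reach 1 FPKM in a group, in other lists up to 3 genes of highest mean FPKM, and 10 genes of like pattern per measure, and some genes that it names are not reported here. Alternatives were other pseudocounts, filters, folds and centring, and leaving out Ttr.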

Additional observations from a re-analysis of the deposited data

How the results depend on the processing

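Of 160 recomputed counts and medians of the members, 139 kept their direction and stayed within 1.5 times of the reported count or 1.5-fold of the reported median; of 240 recomputed log2 ratios of single members 206 did, 34 moved further, and no ratio past 1.5-fold changed sign. The median log2 ratios given next are over the members compared, not over all 10. With the main settings these medians were -3.06 at E15.5 and -3.03 in the knockout between E13.5 and E15.5. With a pseudocount of 1 FPKM the median at E15.5 was -1.71, and that of the knockout between E13.5 and E15.5 was -1.63. From E15.5 to P7 the knockout median was 1.35 with it (3.62 with 0.01 FPKM). With the pseudocount of 1 FPKM 1 member was lower at P7 and 0 in Peril. With a minimum of 5 FPKM, which leaves fewer members, 2 were lower at E15.5 (median -3.98), 1 at P7, 5 in the knockout between E13.5 and E15.5 (median -4.34), 0 in wild type from E15.5 to P7, and 2 higher in the knockout over that step (median 5.74). Without a minimum 1 member, Slc4a5, was higher at E13.5 and 5 were higher in wild type from E15.5 to P7. At 2-fold 0 members were lower at P7, in Peril and in wild type from E15.5 to P7, and 0 were higher in wild type from E13.5 to E15.5. Without Ttr 0 members were higher in that last step. Of the 10 genes nearest to Ttr, 4 stayed with a pseudocount of 1 FPKM and 4 with Pearson's correlation as the measure, and 6 of the 10 nearest to the members' mean under either. Of the other choroid plexus genes, with a pseudocount of 1 FPKM 6 rather than 10 were lower at E15.5, 0 rather than 1 at P7 and 0 rather than 4 in Peril, and 0 rather than 4 were higher at E13.5. With it 2 rather than 5 hindbrain genes were higher in Peril, 3 rather than 5 diencephalic and midbrain genes were lower at P7, and at E15.5 0 rather than 2 meningeal, 0 rather than 1 roof plate and 1 rather than 2 motile cilia genes were lower.

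No paired analysis was possible because the files give no values per library, and for the same reason leaving out a library was not run. The number of reads behind a value is unknown, so members under 1 FPKM are the least certain.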
